A study of Mus musculus with 8 samples.

Results

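The 5C map of the X-inactivation center (Xic) extends to the left of the Tsix-TAD into a stretch of the X chromosome that none of the engineered alleles edits, chrX:98831149-100303825 (mm9). The contacts described here were chosen by position alone, as the pairs of one forward and one reverse primer whose HindIII fragments both have their midpoint in this stretch and lie at most 600 kb apart. This gave 14222 of the 269808 primer pairs of the X-chromosomal map, made by 136 forward and 136 reverse primers on 272 fragments with a median length of 2.30 kb. The cells were undifferentiated (day 0) male E14 mouse embryonic stem cells (mESCs; XY, 129/Ola), which carry a single X chromosome, so that every contact comes from the mutant X. There were 2 libraries for each of 4 genotypes. The allele 245kb-INV inverts 245 kb of the Tsix-TAD, Linx-51kb-INV inverts the 51 kb of Linx that hold its CTCF sites, Chic1-4kbD deletes 4 kb of Chic1 with some of its CTCF sites, and Chic1-14kbD deletes 14 kb with all of them. The 2 libraries of an allele were from independent clones, except those of Chic1-14kbD, which were both from clone B10, so that this allele is known here from a single clone. Wild-type libraries were not analysed here, and differences are therefore between mutant alleles, with Chic1-4kbD, the smallest edit, as the reference. The question was whether the folding of unedited domains to the left of the edits differed between the alleles.

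All edits lie to the right of the stretch. Its last base was 73.5 kb from the left breakpoint of the 245 kb inversion, and its first base was 1546 kb away. Distances are given from this breakpoint for all alleles. The Linx and Chic1 edits lie inside the inverted interval, so their own distances from the stretch are larger. From base 99889289 to base 100093263 no primer was placed, and the Dmrtc1 gene cluster lies there. Of the 272 fragments, 256 were to the left of this gap and 16 between it and the edits. The 16 fragments closest to the edits thus carry little of what follows, and the first well-measured fragments began 488 kb from the breakpoint. Within the stretch, 40-base words that occur more than once made up 47.5% of the unprimed sequence, 34.0% of the sequence to its right and 4.90% of the sequence to its left.

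In 5C, crosslinked chromatin is cut and religated, and the junctions between chosen fragments are counted, so that a high count reports that both fragments were often close in the nucleus. The count falls with distance along the chromosome. On top of this decay, mammalian chromosomes are divided into topologically associating domains (TADs), within which contacts are more frequent than across their borders. Borders and the loops between them are commonly found at sites bound by CTCF, which stops the cohesin complex as it extrudes DNA, and loops form mostly between CTCF motifs that point toward each other.

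The sequence was searched on both strands for the 12-base core of the CTCF motif, and 9 matches were found. The matches nearest the borders and the strongest contact described below are shown, each read 5′ to 3′ along the strand of the motif from the NCBIM37 (mm9) sequence, with the core in capitals. Matches 4, 5 and 6 lie between the start of Rps4x and the middle border of the stretch, at chrX:99384751-99384810 (minus strand), chrX:99392658-99392717 (minus strand) and chrX:99414637-99414696 (plus strand). Match 7 lies in Hdac8, next to the right-hand border, at chrX:99689466-99689525 (plus strand).
Match 4: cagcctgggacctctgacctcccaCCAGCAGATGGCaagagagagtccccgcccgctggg
Match 5: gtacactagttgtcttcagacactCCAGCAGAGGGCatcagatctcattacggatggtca
Match 6: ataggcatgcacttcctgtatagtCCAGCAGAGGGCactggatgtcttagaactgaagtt
Match 7: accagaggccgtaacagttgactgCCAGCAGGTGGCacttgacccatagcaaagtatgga
Matches 8 and 9, at chrX:99884751-99884810 (plus strand) and chrX:100122235-100122294 (minus strand), flank the unprimed gap and are shown because they are inverted copies of each other.
Match 8: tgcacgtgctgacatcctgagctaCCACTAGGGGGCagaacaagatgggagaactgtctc
Match 9: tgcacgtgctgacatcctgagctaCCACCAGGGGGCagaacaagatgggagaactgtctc
These copies lie 237 kb apart on opposite strands, and 48 of their 48 flanking bases were identical. The core carries one substitution, T5C, counted from its 5′ end with the base of match 8 first.

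Match 4 is 42 bases upstream of the start of Rps4x, which encodes a protein of the small ribosomal subunit. The promoter is shown because its tile takes part in the strongest contact of the stretch. The 250 bases before the start, chrX:99384734-99384983 on the minus strand, read as follows with the core in capitals.
Rps4x promoter: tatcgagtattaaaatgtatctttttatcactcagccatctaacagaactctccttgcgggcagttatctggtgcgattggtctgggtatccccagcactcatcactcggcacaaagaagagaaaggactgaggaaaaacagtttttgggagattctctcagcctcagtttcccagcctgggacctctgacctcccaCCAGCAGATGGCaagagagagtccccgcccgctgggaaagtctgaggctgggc
A match within 250 bases of a start was rare, with 3 of 932 protein-coding genes of the X chromosome (0.322%) and 1 of the 18 of the stretch. By contrast, tiles of 50 kb held a match at a like rate in the stretch (6 of 30, 20%) and over the whole X map (19 of 91, 20.9%). These are matches of letters and do not show whether CTCF is bound.

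Total counts ranged from 1614282 in Chic1-14kbD replicate 2 to 21046109 in Chic1-14kbD replicate 1, and the contacts of the stretch held 331877 to 4107069 of them. The median count per primer pair was 106 in the deepest library, 25 to 60 in the 6 libraries of the other alleles and 5 in the shallowest. Reads were counted without molecular identifiers and are not independent molecules, and p-values measure the spread between these 8 libraries. The Chic1-14kbD libraries stood apart from the others. The stretch took 19.8% and 20.9% of their X-chromosomal counts, against 12.7% to 16.1% elsewhere, and contacts of the X chromosome with the chromosome 5 control region took 0.278% and 0.130% of their counts, against 1.18% to 2.34%. The labels also give these libraries the prefixes B101 and B102, whose meaning is not stated, whereas B27 and B28 were 245kb-INV and B29 was Linx-51kb-INV and Chic1-4kbD. Prefix and allele cannot be told apart for 245kb-INV and Chic1-14kbD, and only Linx-51kb-INV and Chic1-4kbD were compared within one prefix. Tests among alleles are accordingly given with and without Chic1-14kbD. The files hold contact counts alone, so the cell type could not be checked against marker genes.

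Contacts decayed faster with distance in the stretch than in the rest of the X map. The decay exponent, the slope of log count against log distance from 20 to 600 kb, was −0.87 ± 0.042 (SD, n = 8 libraries) here and −0.74 ± 0.060 elsewhere outside the edited interval. It was lower here in 8 of 8 libraries, by −0.13 ± 0.024 (two-sided exact sign-flip permutation test, p = 0.0078125, the smallest that 8 libraries allow). The difference arose at long range. At 20 to 40 kb, a primer pair of the stretch had 23.0 to 39.5 counts per 1000000 X-chromosomal counts (median 28), and one of the rest of the map had 24 to 35.4 (median 28.7). At 400 to 600 kb the stretch had 2.03 to 2.71 (median 2.1) and the rest 2.86 to 3.88 (median 3.61), and these ranges did not overlap. Without both Chic1-14kbD libraries the exponent was again lower here by −0.13, in all 6 libraries (exact sign-flip permutation test, p = 0.0313, the smallest possible).

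**Figure D1:**
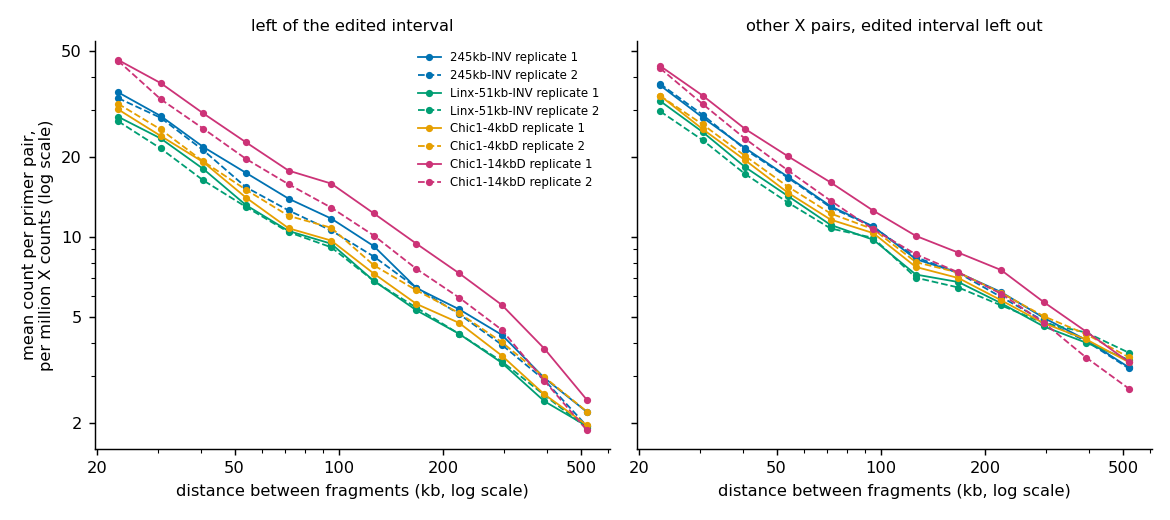
Mean count per primer pair, in counts per 1000000 X-chromosomal counts, against the distance between fragments in kb, both on log axes, with one line per library, for the unedited stretch (left panel) and the other X-chromosomal pairs outside the edited interval (right panel). The panels start at similar levels at 20 to 40 kb, and at 400 to 600 kb the stretch is at 2.03 to 2.71 and the rest at 2.86 to 3.88.

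By allele, the exponent was −0.87 and −0.88 in the 245kb-INV libraries, −0.86 and −0.83 in Linx-51kb-INV, −0.86 and −0.83 in Chic1-4kbD, and −0.89 and −0.96 in Chic1-14kbD. The values of Linx-51kb-INV and Chic1-4kbD overlapped, and the lowest ones were from Chic1-14kbD. The alleles differed by more than their replicates (exact permutation test, p = 0.0476), but this call was lost in 7 of 8 analyses that left out 1 library, with p up to 0.238, and without both Chic1-14kbD libraries (exact permutation test, p = 0.333, where no p below 0.0667 is possible). Inversion and deletion alleles differed by 0.03 (exact permutation test, p = 0.486).

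In the main setting, 3 minima of the insulation profile were called as borders, which divided the stretch into 4 domains. Insulation was measured as the log2 ratio of observed to expected count in a square of 100 kb on either side of a position, where the expected count is that of the distance decay of the library. A value of −1 means that contacts across the position were at 50% of the count that distance predicts. The minima, taken as borders, were at 99161148 (border 1), 99431148 (border 2) and 99681148 (border 3), at 1216, 946 and 696 kb from the left breakpoint. Border 2 was at −1.03 ± 0.13 (SD, n = 8 libraries), border 3 at −0.82 ± 0.11 and border 1 at −0.74 ± 0.29. Their order depended on the setting. When each primer was given its own efficiency in each library (primer factors), border 3 was lower than border 2 in all 8 libraries, and with squares of 50 kb border 1 was the lowest, at −1.20 against −1.11 for border 2.

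**Figure D2:**
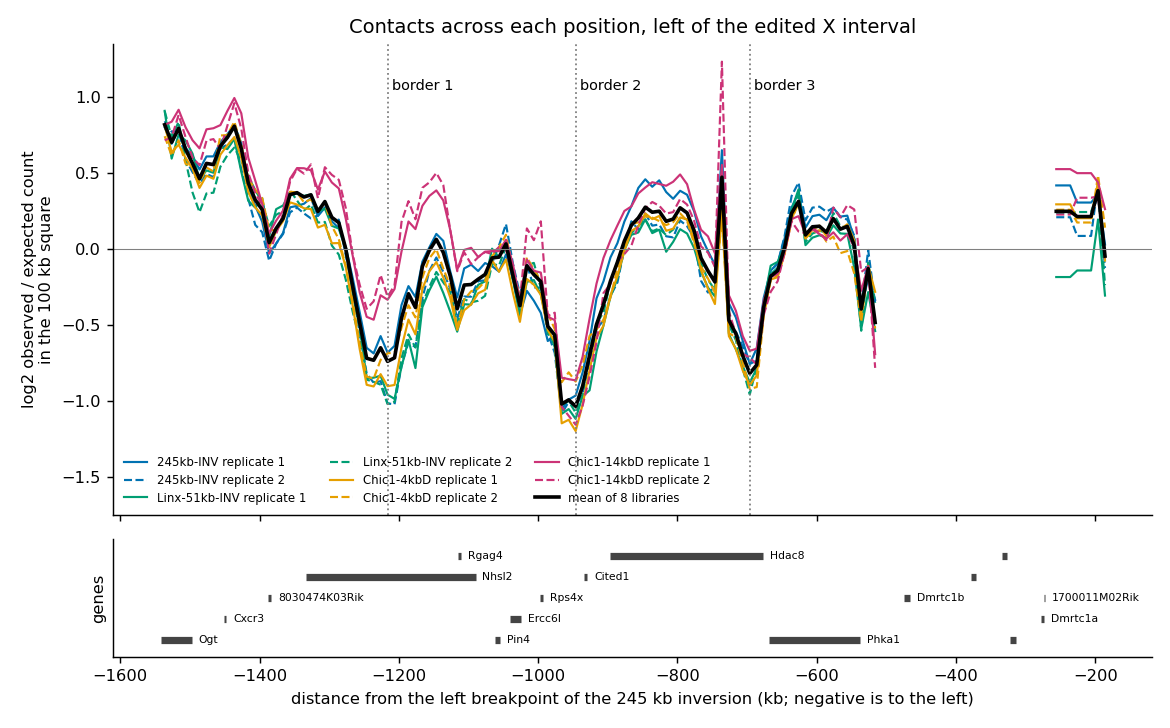
Insulation profile of the stretch, as the log2 ratio of observed to expected count in 100 kb squares, against the distance from the left breakpoint of the 245 kb inversion in kb, with one line per library, the mean in black, dotted lines at the borders and bars for the genes. Borders lie at 1216, 946 and 696 kb to the left of the breakpoint, the break in the lines is the unprimed gap, and both Chic1-14kbD lines are above the others at border 1.

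Border 2 lay between Rps4x and Cited1, 16.4 kb from the start of Cited1, which encodes a co-activator that binds CBP/p300. The contacts of 274 primer pairs across it were at −0.96 and −1.03 in 245kb-INV, −1.12 and −1.08 in Linx-51kb-INV, −1.2 and −0.87 in Chic1-4kbD, and −0.86 and −1.16 in Chic1-14kbD. Both inversion alleles lay within the range of each deletion allele but did not overlap each other. The alleles did not differ (exact permutation test among alleles, p adjusted over the 3 borders = 0.895, and 0.8 without Chic1-14kbD). Match 6 was 16.5 kb to its left, match 5 was 38.5 kb to its left, and match 4, at the Rps4x start, was 46.4 kb to its left.

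Border 3 lay in Hdac8, the gene of a histone deacetylase that also deacetylates the cohesin subunit Smc3, 19.6 kb from its start. Its 300 primer pairs were at −0.75 and −0.76 in 245kb-INV, −0.88 and −0.96 in Linx-51kb-INV, −0.89 and −0.92 in Chic1-4kbD, and −0.67 and −0.71 in Chic1-14kbD. Linx-51kb-INV and Chic1-4kbD were lower than the other alleles without overlap, which did not pass the adjusted test (exact permutation test, p = 0.0286, adjusted p = 0.0857, and 0.6 without Chic1-14kbD). These alleles are also those that share the prefix B29. With primer factors in each library this order was not kept. The values were then −0.76 and −0.74 in 245kb-INV, −0.65 and −0.65 in Linx-51kb-INV, −0.68 and −0.78 in Chic1-4kbD, and −0.80 and −0.85 in Chic1-14kbD. Each of the 8 libraries had its own minimum within 20 kb of this border, which had match 7 at 8.34 kb to its right.

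Border 1 lay inside Nhsl2, a gene related to NHS, and 105 kb from the start of Rgag4, a gene derived from a retrotransposon gag sequence. Its 313 primer pairs were at −0.68 and −1.02 in 245kb-INV, −0.96 and −1.02 in Linx-51kb-INV and −0.90 and −0.69 in Chic1-4kbD, but at −0.33 and −0.31 in Chic1-14kbD. The Chic1-14kbD libraries were higher than the other 6, and the exact permutation test among alleles gave p = 0.0667 (adjusted p = 0.10, and 0.7 without Chic1-14kbD). The nearest motif match was 51 kb away. The value at border 1 depended on whether primer factors were used. These factors were fitted to the same counts, those of the stretch included. They therefore also take up any folding or allele difference shared by all contacts of a fragment, and cannot tell it from primer efficiency. The 37 fragments in the tiles around it were low with all partners (median −0.87 in the other 6 libraries, −0.23 in Chic1-14kbD). With primer factors in each library, the value at border 1 rose to −0.04 (range −0.15 to 0.11), while border 2 was at −0.57 and border 3 at −0.74. With those primer factors the nearest minimum was at 99131148 with −0.24. Borders 2 and 3 were called within 20 kb of these positions under every setting tried, whereas border 1 was not called with squares of 200 kb. Some settings called an additional border, so the number of domains depended on the setting. It was at 98991148 with squares of 50 kb, at 99261148 with counts scaled to library size and at 98921148 with primer factors.

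**Figure D3:**
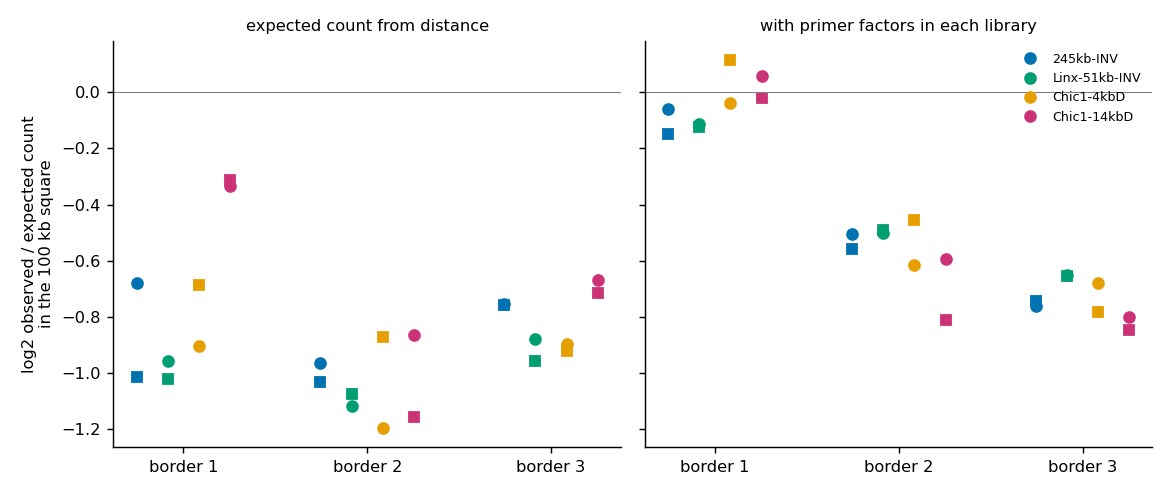
Insulation at the 3 borders, as the log2 ratio of observed to expected count, with a circle for replicate 1 and a square for replicate 2 of each allele, with the expected count from distance alone (left panel) or with primer factors in each library (right panel). In the left panel both Chic1-14kbD points of border 1, at −0.33 and −0.31, lie above the other 6, and in the right panel the 8 points of border 1 lie between −0.15 and 0.11.

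The borders delimit 4 domains. Domain 1, from 98831149 to 99161148 (330 kb), holds Ogt, the gene of the O-GlcNAc transferase, Cxcr3, a chemokine receptor gene, 8030474K03Rik and the start of Nhsl2. Its contacts were above the distance expectation, at 0.19 ± 0.086 (SD, n = 8 libraries). Domain 2, from 99161149 to 99431148 (270 kb), holds Rgag4, Pin4, Ercc6l and Rps4x, and was at −0.19 ± 0.12. Pin4 encodes a peptidyl-prolyl isomerase of the parvulin family, and Ercc6l a DNA translocase of mitotic chromosomes. Domain 3, from 99431149 to 99681148 (250 kb), holds Cited1 and most of Hdac8 and was at 0.05 ± 0.15. Domain 4, from 99681149 to 100303825 (623 kb), holds the start of Hdac8, Phka1, which encodes a regulatory subunit of phosphorylase kinase, and the Dmrtc1 cluster, and was at 0.11 ± 0.052. Contacts between neighboring domains were at −0.33 ± 0.17 for domains 1 and 2, −0.72 ± 0.16 for domains 2 and 3 and −0.46 ± 0.074 for domains 3 and 4. By this measure domains 2 and 3 were the most separated, but with primer factors they were at −0.27 ± 0.047, domains 3 and 4 at −0.28 ± 0.063, and domains 1 and 2 at 0.02 ± 0.019.

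Within domains, no difference among alleles passed the test (exact permutation tests, p adjusted over 4 domains = 0.114 for each). The allele means of domain 2 were −0.25 in 245kb-INV, −0.26 in Linx-51kb-INV, −0.24 in Chic1-4kbD and −0.00 in Chic1-14kbD. Those of domain 1 were 0.16, 0.14, 0.13 and 0.31 in the same order, and those of domain 3 were 0.10, −0.09, −0.04 and 0.22. In each of these domains the highest mean was that of Chic1-14kbD, whereas in domain 4, nearest to the edits, it had the lowest, with means of 0.17, 0.11, 0.12 and 0.04. Without both Chic1-14kbD libraries the adjusted p-values of the exact permutation tests were 0.533 to 0.8, in a design that could not pass the threshold. Between domains 1 and 2 Chic1-14kbD had a mean of −0.08, against −0.34 in 245kb-INV, −0.48 in Linx-51kb-INV and −0.42 in Chic1-4kbD (exact permutation test, p = 0.0286, p adjusted over 3 neighboring pairs = 0.0857). Without both Chic1-14kbD libraries the adjusted p-values for neighboring domains were 0.20 to 0.333 by the same exact test.

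Of the 18 protein-coding genes that start in the stretch, 12 could be measured for the direction of their contacts, the log2 ratio of observed to expected count on the right of the start minus that on the left. The others were Ogt, which has no primer pairs on its left, and Gm9112, Dmrtc1b, Dmrtc1c1, Dmrtc1c2 and 1700031F05Rik, which lie in the unprimed gap. Contacts of Cited1 pointed to the right, away from border 2, by 1.04 ± 0.14 (SD, n = 8 libraries), with −0.99 on the left and 0.05 on the right. Contacts of the Hdac8 start pointed to the right by 1.01 ± 0.15, away from border 3, with −0.76 on the left and 0.25 on the right. Rps4x, on the other side of border 2, pointed left, at −0.48 ± 0.31, and the means of Pin4 (−0.48 ± 0.10), Rgag4 (−0.36 ± 0.093) and Phka1 (−0.54 ± 0.15) had the same sign. Ercc6l, in the same domain as Pin4 and Rps4x, was at −0.02 ± 0.12. In domain 1, 8030474K03Rik was at −0.55 ± 0.16, Nhsl2 at −0.23 ± 0.083 and Cxcr3 at 0.19 ± 0.18. Dmrtc1a and 1700011M02Rik share their fragments and were both at −0.32 ± 0.21. None of the 12 differed among alleles after adjustment (exact permutation tests, smallest adjusted p = 0.571, and 0.8 without both Chic1-14kbD libraries).

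The strongest contact between tiles of 50 kb at least 100 kb apart joined the tile of Rps4x (99381149 to 99431148) with the Hdac8 tile 99631149 to 99681148. Both tiles end at a border, on its left side, and the contact spans domain 3, crossing border 2. Its 49 primer pairs summed to 13269 and 13375 counts in 245kb-INV, 6157 and 7468 in Linx-51kb-INV, 6526 and 5861 in Chic1-4kbD, and 22055 and 1345 in Chic1-14kbD. Relative to the distance expectation of each library, this was 1.62 and 1.39, 1.26 and 1.27, 1.40 and 1.52, and 1.76 and 1.71 on the log2 scale. The mean was 1.49 ± 0.19 (SD, n = 8 libraries), and 27 of the 49 primer pairs were above the expected count. The leading primer pair, 269 kb apart, joined a fragment ending at 99404546 with 99670589 to 99673333 and had 119 to 1911 counts per library. The next primer pair shared its right fragment, and the one after that its left fragment. How far the sum rested on these fragments was not tested. The left tile holds matches 4, 5 and 6 shown above. The right tile holds no match, and match 7 lies in the tile to its right. Matches 4 and 5 are on the minus strand and matches 6 and 7 on the plus strand. No match of the left tile and match 7 thus point toward each other.

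**Figure D4:**
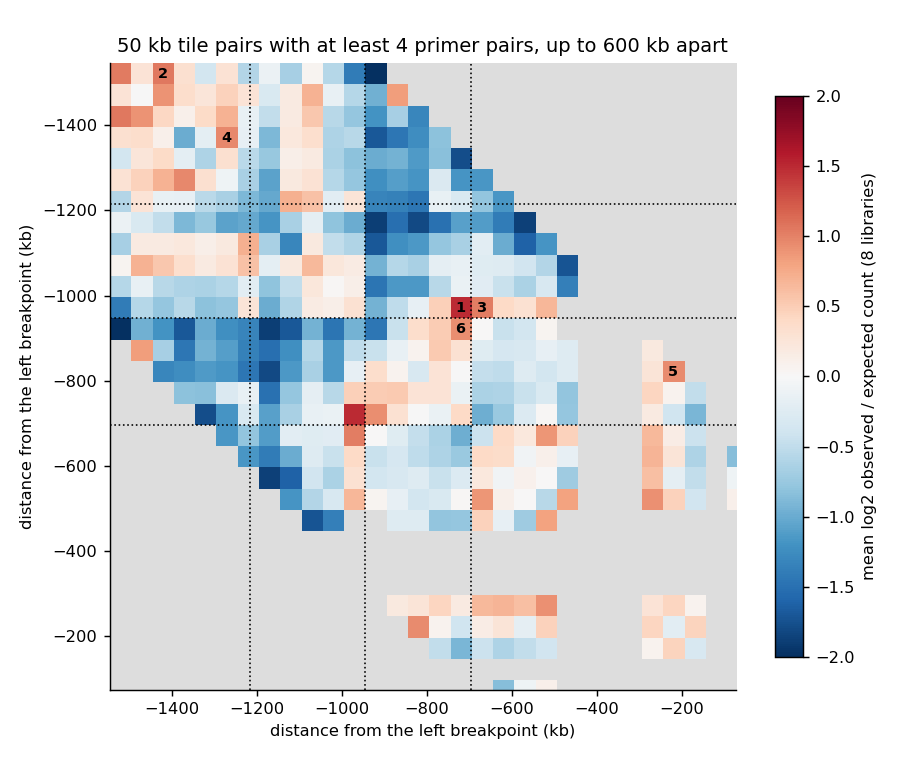
Contact map of the stretch in 50 kb tiles, as the mean log2 ratio of observed to expected count over 8 libraries (colour), with both axes in kb from the left breakpoint of the 245 kb inversion. Gray marks tile pairs over 600 kb apart or with under 4 primer pairs, dotted lines mark the 3 borders, and numbers 1 to 6 rank the strongest tile pairs at least 100 kb apart, of which the first has a mean of 1.49.

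A pair of neighbors of this contact were also among the 6 strongest. The Rps4x tile with 99681149 to 99731148, which holds the Hdac8 start and match 7, was at 1.02 ± 0.29 (38 primer pairs), and the Cited1 tile (99431149 to 99481148) with 99631149 to 99681148 was at 0.93 ± 0.27 (56 primer pairs). The latter lies within domain 3 and joins its ends. In domain 1, the Ogt tile (98831149 to 98881148) with 98931149 to 98981148 was at 1.06 ± 0.086 (60 primer pairs), and the 8030474K03Rik tile (98981149 to 99031148) with 99081149 to 99131148 was at 0.97 ± 0.28 (58 primer pairs). The remaining one, 99531149 to 99581148 with 100131149 to 100181148, was at 0.95 ± 0.40 and rested on 1 of its 10 primer pairs.

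Among alleles, the contact of Rps4x with the Hdac8 tile passed the test (edgeR quasi-likelihood test, adjusted p = 0.0335), but not with primer factors (edgeR adjusted p = 0.697) or without Chic1-14kbD (edgeR adjusted p = 0.545). The Ogt contact varied least of the 6 between libraries, from 0.88 to 1.15, and did not differ among alleles (edgeR quasi-likelihood test, adjusted p = 0.779). The 8030474K03Rik contact was at 1.39 in both Chic1-14kbD libraries and at 0.62 to 0.96 in the others, higher than in Chic1-4kbD by 0.54 ± 0.11 (SE; edgeR adjusted p = 0.000831). With primer factors this difference was −0.07 (edgeR adjusted p = 0.619), and without Chic1-14kbD the other alleles did not differ (edgeR adjusted p = 0.557). The contact of Cited1 with the end of domain 3 was at 1.10 and 1.12 in 245kb-INV, 0.43 and 0.65 in Linx-51kb-INV, 0.88 and 0.97 in Chic1-4kbD, and 1.15 and 1.18 in Chic1-14kbD. The alleles did not overlap, and the lowest was Linx-51kb-INV (edgeR among alleles, adjusted p = 0.00210). It was the only tile pair of the stretch called among the 3 alleles that remain without Chic1-14kbD (edgeR adjusted p = 0.0323), where 2.0% of all tile pairs of the map were called. The difference from Chic1-4kbD, the one comparison within a prefix, was −0.38 ± 0.12 and did not pass (adjusted p = 0.389), and with primer factors the alleles did not differ (adjusted p = 0.443).

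Over the stretch, no tile pair passed the test between either inversion and Chic1-4kbD. Counts of 244 tile pairs entered an edgeR fit with 710 others of the X map outside the edited interval. For 245kb-INV minus Chic1-4kbD, 0 of the 244 passed an adjusted p of 0.05, with 0% called over all 954 tile pairs. At an unadjusted p below 0.05 there were 17 (6.97%), and DESeq2 called 0 (1.15% over all tile pairs), with 19 unadjusted. For Linx-51kb-INV minus Chic1-4kbD, 0 of 244 passed, again with 0% over all tile pairs, with 12 unadjusted (4.92%). DESeq2 called 0 of these, also with 12 unadjusted, and 0.629% over all tile pairs. The median size of the log2 difference was 0.15 for 245kb-INV and 0.13 for Linx-51kb-INV, and the smallest adjusted p-values were 0.278 and 0.389. Some tile pairs passed for 245kb-INV without 245kb-INV replicate 2, a fit that leaves this allele with 1 library. The share over all tile pairs is not given for that fit.

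Chic1-14kbD differed from Chic1-4kbD in 43 of the 244 tile pairs (17.6%), against 18.7% called over all tile pairs. In this fit the share in the stretch was near the background of the map. Of the 43, 38 were higher in Chic1-14kbD and 5 lower, whereas in the rest of the map 56 were higher and 79 lower. The direction depended on the scaling. When each primer was given its own efficiency in each library, 11 of the 244 were called, against 10.9% over all tile pairs. Of the 11, 3 were higher and 8 lower, 3 were among the 43, and the median over all tile pairs fell by 0.11. With library size as the only scaling, 75 were called, 72 higher and 3 lower, against 21.6% over all tile pairs. The number of calls fell without any 1 library of Chic1-4kbD or Chic1-14kbD, fits that leave a compared allele with 1 library. The share over all tile pairs is not given for these fits.

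Calls were unevenly spread. Of the 57 tile pairs with a tile in the 150 kb from 99131149 onward, 21 were called (36.8%), all higher in Chic1-14kbD. By domain, 9 of 28 within domain 1 were called (32.1%), 7 of 15 within domain 2 (46.7%), 5 of 15 within domain 3, which has no tile there (33.3%), and 4 of 42 within domain 4 (9.52%). The smallest p was that of the neighboring tiles 99131149 to 99181148, which holds border 1, and 99181149 to 99231148, to its right, with 98 primer pairs. They were at −1.0 and −1.37 in 245kb-INV, −1.36 and −1.31 in Linx-51kb-INV, −1.34 and −1.15 in Chic1-4kbD, and −0.49 and −0.21 in Chic1-14kbD. The difference of 0.89 ± 0.12 (SE; edgeR adjusted p = 1.46e-05) was 0.18 with primer factors (adjusted p = 0.217). A property of the fragments moved with this difference. The 37 fragments of these tiles had a GC content of 41.1% to 57.5%, their level with all partners was higher in Chic1-14kbD than in the other 6 libraries in 35 of 37, with a median difference of 0.69, and over the whole stretch that difference was 0.10 for the 88 fragments of lowest GC content, 0.28 for the 88 in the middle and 0.45 for the 88 of highest. The part of GC content in the difference at border 1 was not tested.

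Among the 5 that were lower in Chic1-14kbD, the smallest p was that of 98881149 to 98931148, which holds the Cxcr3 start, with 99481149 to 99531148 in Hdac8, 35 primer pairs at a mean distance of 584 kb. They were at 0.95 and 1.32 in 245kb-INV, 1.74 and 1.06 in Linx-51kb-INV, 1.2 and 0.81 in Chic1-4kbD, and 0.12 and −0.47 in Chic1-14kbD. The Chic1-14kbD libraries were the lowest of the 8, by −1.12 ± 0.24 against Chic1-4kbD (SE; edgeR adjusted p = 0.00221). This call was lost without Chic1-4kbD replicate 1 (−0.91, adjusted p = 0.0685) and with primer factors (−0.65, adjusted p = 0.0822). The same tile pair was the most significant among those higher in inversion than in deletion alleles, by 0.83 ± 0.17 (edgeR adjusted p = 0.00189), a comparison that shares the Chic1-14kbD libraries.

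**Figure D5:**
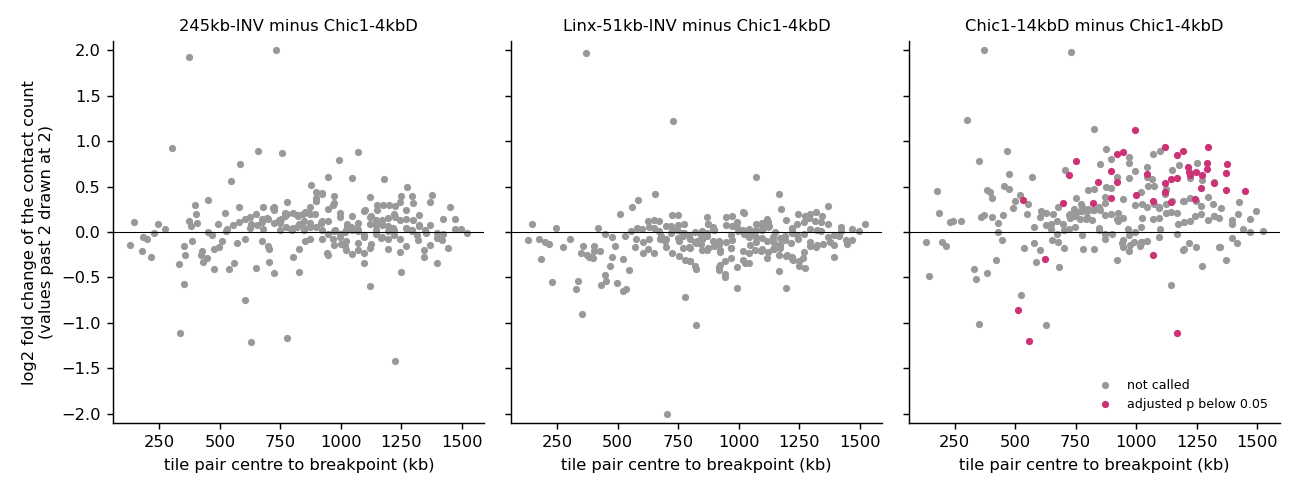
Log2 difference of the contacts of each tile pair for each allele minus Chic1-4kbD, against the distance of the tile pair from the left breakpoint in kb, with called tile pairs (adjusted p below 0.05) in colour and differences past 2 drawn at 2. No tile pair was called for 245kb-INV or Linx-51kb-INV, and 43 were called for Chic1-14kbD, all at 500 kb or farther.

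Inversion minus deletion alleles gave 14 calls of 244 (5.74%), 3 higher and 11 lower, against 9.75% over all tile pairs. The direction depended on the scaling. With primer factors 11 were called, 9 higher and 2 lower, of which 2 were among the 14, against 10.5% over all tile pairs. The smallest p among the lower ones was that of 99131149 to 99181148 with 99231149 to 99281148, next to border 1 (−0.46 ± 0.086, SE; edgeR adjusted p = 0.000883). It was at −0.03 with primer factors (adjusted p = 0.804). Without both Chic1-14kbD libraries 0 were called by edgeR, with 2 at an unadjusted p below 0.05. Over the 4 alleles together, 54 of 244 tile pairs differed (22.1%), against 23.6% over all tile pairs, and without both Chic1-14kbD libraries 1 did, with 30 at an unadjusted p below 0.05.

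For Chic1-14kbD minus Chic1-4kbD, the share of called tile pairs was not highest nearest the edits. At 0 to 250 kb from the left breakpoint of the 245 kb inversion 0 of 8 were called, and at 250 to 500 kb 0 of 25. Farther away 6 of 43 (14.0%), 10 of 67 (14.9%), 17 of 65 (26.2%) and 10 of 35 (28.6%) were called, in steps of 250 kb to 1500 kb. The nearest steps hold few tile pairs because of the unprimed gap, and of these 6 steps the last had the highest share. The 1 tile pair beyond 1500 kb was not called. On the other side of the edits, where the primers continue, shares ranged from 6.15% to 33.3% between 0 and 2750 kb, with the highest at 500 to 750 kb. For inversion minus deletion alleles, the nearest step of the stretch had the highest share, 1 of 8 (12.5%), against 1.49% to 10.8% in the others. Among alleles 2 of 8 (25%) were called in that step, and the highest share was 37.1% at 1250 to 1500 kb. For 245kb-INV the median size of the difference in the same 6 steps of the stretch was 0.10, 0.21, 0.15, 0.19, 0.13 and 0.13, and for Linx-51kb-INV 0.10, 0.27, 0.11, 0.12, 0.13 and 0.11. Both were largest at 250 to 500 kb, the step in which the unprimed gap lies. In each comparison with Chic1-4kbD, 1 tile pair of the stretch differed by over 2 on the log2 scale, with at most 3 primer pairs and no call.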

How the data were processed

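5C was performed in 8 libraries of mutant E14 mESCs. In their pipeline 5C-Pro the authors removed adapters, mapped reads with Bowtie2 (version not given in the sources used here) against a reference built from every possible primer pair, and deposited the raw counts per primer pair, before inefficient primers were discarded, replicates pooled and contacts binned. Positions are in mm9 (NCBIM37), and each of 1039 X-chromosomal fragments had HindIII sites at both ends there. Genes were placed with GENCODE on that build.

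From these counts, a forward or reverse primer was dropped if its sum over libraries was under 0.1 or over 10 times the median of such primers, leaving 13321 of 14222 primer pairs (93.7%). The expected count was taken from the distance decay of each library in 40 bins of distance. Borders are positions, in steps of 10 kb, with the lowest value within 100 kb and at least 0.5 below the highest value within 200 kb on each side, in squares of 100 kb with at least 20 primer pairs. Counts were summed over pairs of 50 kb tiles, and the 954 pairs that averaged 50 or more counts entered edgeR 4.0.16 (R 4.3.3; glmQLFit and glmQLFTest, log expected count as the offset, all 8 libraries in one fit, Benjamini-Hochberg adjustment, threshold 0.05). Exact permutation tests (two-sided) were used for single values, and for 4 alleles of 2 libraries they cannot give a p below 0.00952, and for 4 against 4 libraries below 0.0286. Other steps used python 3.11.15, numpy 2.4.6, pandas 2.3.3, scipy 1.17.1 and matplotlib 3.10.9. The edgeR fit was tested on simulated counts.

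The text names every border and domain, every protein-coding gene, the 6 strongest tile pairs at least 100 kb apart with at least 4 primer pairs, and the called tile pair with the smallest p in each direction of a comparison. The stretch, the lists and the rules were chosen with earlier results of these data known. Replicates of an allele differed by more than sampling noise (chi-square per degree of freedom 55.5 to 209 over 244 tile pairs) and were counted separately. The alternatives were other primer filters, squares, tiles and ranges of distance, library size or TMM in place of the distance decay, DESeq2 1.42.0, and leaving out each library. Primer factors in each library, the omission of both Chic1-14kbD libraries and the contacts between neighboring domains were chosen after seeing the data.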

Additional observations from a re-analysis of the deposited data

How the results depend on the processing

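Of the recomputed values of the summary results, 308 kept their call, 25 moved, 10 fell short of the threshold and 2 came past it. Those that kept their call include small changes of a count. They also include changes of sign where neither value was past the threshold. An example is inversion minus deletion alleles at border 2, at −0.0836 to 0.0275 without 1 library. The difference among alleles in decay exponent, a spread of 0.083 between the highest and lowest allele, was no longer past the threshold at distances of 50 to 400 kb (0.0746, exact permutation test, p = 0.219), with medians of counts over 0 (0.189, p = 0.286), without both Chic1-14kbD libraries (0.0315) and in 7 of 8 analyses without 1 library (0.0506 to 0.115). Past the threshold came the difference among alleles at border 3 without Linx-51kb-INV replicate 1 (adjusted p = 0.0286 by the exact permutation test, with a range of 0.186 to 0.265 over the libraries left out) and that of domain 3 with library size as the scaling (0.755, adjusted p = 0.0381). The cause was not tested, and the exact test without both Chic1-14kbD libraries could not pass the threshold.

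Counts of called tile pairs moved most. Among alleles they were 54, and 18 with primer factors in each library, 27 with tiles of 100 kb (fewer tile pairs were tested), 87 with library size, 34 with TMM, 1 without both Chic1-14kbD libraries (fewer libraries) and 25 to 82 without 1 library, the fewest without Chic1-14kbD replicate 2, 35 without Chic1-14kbD replicate 1 and the most without 245kb-INV replicate 1. For Chic1-14kbD minus Chic1-4kbD they were 43, and 11 (3 higher, 8 lower) with primer factors, 21 (19 higher, 2 lower) with tiles of 100 kb, 75 (72 higher, 3 lower) with library size, 32 (27 higher, 5 lower) with TMM, 57 (50 higher, 7 lower) with DESeq2 and 15 to 60 without 1 library. For inversion minus deletion alleles they were 14 (3 higher, 11 lower), and 22 (1 higher, 21 lower) with library size, 5 (1 higher, 4 lower) with TMM, 23 (6 higher, 17 lower) with DESeq2, 11 (9 higher, 2 lower) with primer factors, 0 without both Chic1-14kbD libraries and 5 to 36 without 1 library, with 36 without 245kb-INV replicate 1, 9 without Linx-51kb-INV replicate 2, Chic1-4kbD replicate 1 or Chic1-14kbD replicate 2, and 5 without Chic1-4kbD replicate 2. For 245kb-INV minus Chic1-4kbD the count left 0 in 1 of the 8 fits without 1 library, and for Linx-51kb-INV it was 0 throughout. Each fit without 1 library leaves an allele with a single library. The share over all tile pairs is not given for those fits, so their counts cannot be set against the map. Library size moved the median over all tile pairs by 0.13 for Chic1-14kbD and by −0.10 for inversion minus deletion alleles. Over all tile pairs of the map, the share called among alleles was 19% with primer factors, 26.6% with library size and 14.3% with TMM. For Chic1-14kbD minus Chic1-4kbD it was 13.8% with TMM and 23.5% with DESeq2. For inversion minus deletion alleles it was 7.65% with library size, 5.56% with TMM and 13.2% with DESeq2. Of the strongest tile pairs, the Ogt contact was at 0.58 and the Cited1 contact at 1.31 with primer factors, and the contact of Rps4x with the Hdac8 start was at 0.64 without the primer filter.

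No paired analysis was possible because the labels give the alleles no shared replicate numbers, and those used here only name libraries in accession order. With 2 libraries per allele and 4 residual degrees of freedom, small differences cannot be resolved, and Chic1-14kbD replicate 2, with a median count of 5 per primer pair, is the least precise library. The 16 fragments nearest the edits leave that end thinly measured, and without wild-type libraries a change shared by all 4 alleles would not be seen.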

Other observations

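A single position between borders 2 and 3 stood above its neighbors. At 99641148, inside Hdac8 and 736 kb from the left breakpoint, contacts across the position averaged 0.47 on the log2 scale of observed to expected count, with the highest value, 1.23, in Chic1-14kbD replicate 2, whereas the positions 10 kb to its left and right averaged −0.22 and −0.47. The position lies in the right-hand tile of the strongest contact of the stretch, 99631149 to 99681148, but a link between them was not tested. Squares at neighboring positions share most of their primer pairs, so the value may rest on few pairs close to the position. In Chic1-14kbD replicate 2 a single primer pair held 3.85% of the counts of the stretch, against 1.30% to 2.17% in the other libraries. Whether that pair spans the position was not examined.

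The level of a fragment with all its partners, relative to the distance expectation, was higher in Chic1-14kbD than in the other 6 libraries for 190 of 264 fragments, with a median difference of 0.24 on the log2 scale. In the other 6 libraries the median level was −0.06 for the 88 fragments of lowest GC content, −0.19 for the 88 in the middle and −0.51 for the 88 of highest, and in Chic1-14kbD it was 0.07, 0.04 and −0.13. The fragments of these classes share libraries and partners, and no test was made.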
